A study of Mus musculus with 31 samples.

Results

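The genes described here are 10 genes of the inflammasome, pyroptosis and necroptosis, taken by symbol from a table of 15648 genes: Nlrp3, Zbp1, Pycard, Casp1, Casp4, Gsdmd, Il1b, Il18, Ripk3 and Mlkl. All 10 had a row, and all passed the filter of the table, which required 15 counts or more in 15 or more of the mice. They were followed in hippocampal RNA of 31 adult OT-I/Rag-/- mice. In these mice the T cells carry 1 transgenic receptor, which recognizes an ovalbumin peptide on H-2Kb, and the recombination gene Rag1 is missing, so that no other T cells and no B cells mature. All mice, controls included, carry this genotype. The rAAV-OVA mice received rAAV-hSyn-OVA-mCherry in both hippocampi, a vector that expresses ovalbumin and mCherry under the neuronal human synapsin promoter, and the rAAV-control mice received rAAV-hSyn-mCherry. The left hippocampus was taken 2, 5, 8 or 28 d after the injection from 4 mice per vector and day, except for the rAAV-control group at 8 d, which held 3. The labels give each mouse a title (D725, for example) and a batch: 23 mice were in batch 1 and 8 in batch 2, with 2 mice of batch 2 in each group at 2 and 28 d. Totals ran from 19046977 to 57407902 counts per mouse (median 27024978). Levels are given in CPM, that is, counts scaled to a common library size after TMM normalization.

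An inflammasome is a protein platform that assembles in the cytosol of a macrophage, microglial cell or other cell upon signs of infection or damage. A sensor such as NLRP3 recruits the adaptor ASC (encoded by Pycard), which in turn gathers and activates caspase-1. Caspase-1 cuts the precursors of the cytokines IL-1β and IL-18 and cuts gasdermin D, whose freed part forms pores in the plasma membrane; the death that follows is pyroptosis. Caspase-11 (encoded by Casp4 in the mouse) cuts gasdermin D as well, upon binding bacterial lipopolysaccharide. Necroptosis is another lytic death: RIPK3, engaged by death receptors through RIPK1 or by the nucleic acid sensor ZBP1, phosphorylates MLKL, which then damages the membrane. All of these proteins are regulated after translation, and RNA levels measure the genes' expression and not the activity of the pathway. In bulk tissue, more cells of a type and more RNA per cell cannot be told apart.

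Promoter sequences of 8 of the 10 genes were in the RefSeq table used here (build GRCm38.p6). Gsdmd and Zbp1 had no entry. The 250 bases before the gene start are shown, 5′ to 3′, for the 3 genes with an entry that rose most at 5 d (Il1b, Mlkl and Casp4) and for Nlrp3, the sensor. Capitals mark matches to the kappa-B consensus, the binding motif of NF-κB.

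Il1b (chr2:129371140-129371389, minus strand): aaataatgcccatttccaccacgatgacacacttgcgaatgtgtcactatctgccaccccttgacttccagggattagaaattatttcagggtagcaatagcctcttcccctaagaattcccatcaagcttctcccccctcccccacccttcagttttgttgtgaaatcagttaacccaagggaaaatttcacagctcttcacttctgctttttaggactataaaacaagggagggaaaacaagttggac

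Mlkl (chr8:111338206-111338455, minus strand): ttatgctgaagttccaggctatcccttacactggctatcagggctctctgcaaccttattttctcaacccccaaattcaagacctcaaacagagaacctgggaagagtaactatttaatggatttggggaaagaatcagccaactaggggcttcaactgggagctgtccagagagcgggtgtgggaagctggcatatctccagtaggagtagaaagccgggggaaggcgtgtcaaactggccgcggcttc

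Casp4 (chr9:5308599-5308848, plus strand): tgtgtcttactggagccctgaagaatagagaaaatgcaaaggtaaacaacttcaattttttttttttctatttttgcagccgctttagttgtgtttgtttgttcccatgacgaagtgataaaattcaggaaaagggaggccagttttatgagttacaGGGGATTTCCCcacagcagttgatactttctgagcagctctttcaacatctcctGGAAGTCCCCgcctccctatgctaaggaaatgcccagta

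Nlrp3 (chr11:59541319-59541568, plus strand): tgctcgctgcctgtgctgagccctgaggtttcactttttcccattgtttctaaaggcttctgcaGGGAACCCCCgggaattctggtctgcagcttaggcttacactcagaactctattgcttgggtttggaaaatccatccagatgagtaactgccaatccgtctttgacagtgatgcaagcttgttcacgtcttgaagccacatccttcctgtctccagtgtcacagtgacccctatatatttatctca

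Each window was searched on both strands for GAAANNGAA, the core of the interferon-stimulated response element, and for the kappa-B consensus. The former was found in 0 of the 8 genes, over 10 windows, while 7.13% of all 32851 promoter windows of the same length held it. Kappa-B letters were found in 3 of the 10 windows, those of both listed starts of Casp4 and of 1 of the 2 listed starts of Nlrp3, and in 7.25% of all windows. Both Casp4 windows overlap and hold the same 3 matches. In the one shown, a pair overlapped (at -93 to -84 and -92 to -83 from the gene start) and the other lay at -39 to -30 on the opposite strand. The Nlrp3 window shown held 1 match, at -186 to -177. The windows of Casp1, Pycard, Il18 and Ripk3 held neither motif. Whether a factor binds there was not measured.

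Some mice stood apart from their groups in these genes. The rAAV-control mouse D720 (8 d) lay above the other 2 control mice of that day in 9 of 10 genes, and below every rAAV-OVA mouse in 8. Its summed T cell marker level was 33.3 CPM against 2.47 and 3.68 in the other controls, its interferon response genes summed to 1412 CPM against 72.5 and 313, and its pan-myeloid markers to 730 CPM against 188 and 272. The rAAV-OVA mouse D844 (28 d, batch 2) lay below the other 3 rAAV-OVA mice of that day in 9 of 10 genes, and above all controls in 5. Its T cell markers summed to 31.9 CPM, between the controls (0.778 to 1.73) and the other rAAV-OVA mice (272 to 652), and its monocyte markers to 3.59 CPM against 45.7 to 102. The hippocampal neuron markers of D844 summed to 1671 CPM, against 1313 to 3020 CPM in the other rAAV-OVA mice and 3506 to 4218 CPM in the controls. In D720 they summed to 3437 CPM, against 3999 and 4456 CPM in the other controls and 2511 to 3211 CPM in the rAAV-OVA mice. Whether the labels of these 2 mice are right cannot be told from these data. Both mice were kept, and the Log2FC values of the genes called at 5 d are given for 8 and 28 d with and without them. What part these levels had in the results was not tested.

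At 5 d, 9 of the 10 genes were increased differentially expressed genes (DEGs), that is, with an FDR of at most 0.05 over all genes in edgeR's quasi-likelihood test and a Log2FC of at least 0.66. Among all genes, 9.63% were increased DEGs. In each of the 9 genes the lowest rAAV-OVA mouse lay above the highest control, which held for 21% of all genes. The median Log2FC of the 10 genes was 2.44, against -0.01 for all genes. Il18 was the gene that was not called.

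**Figure D1:**
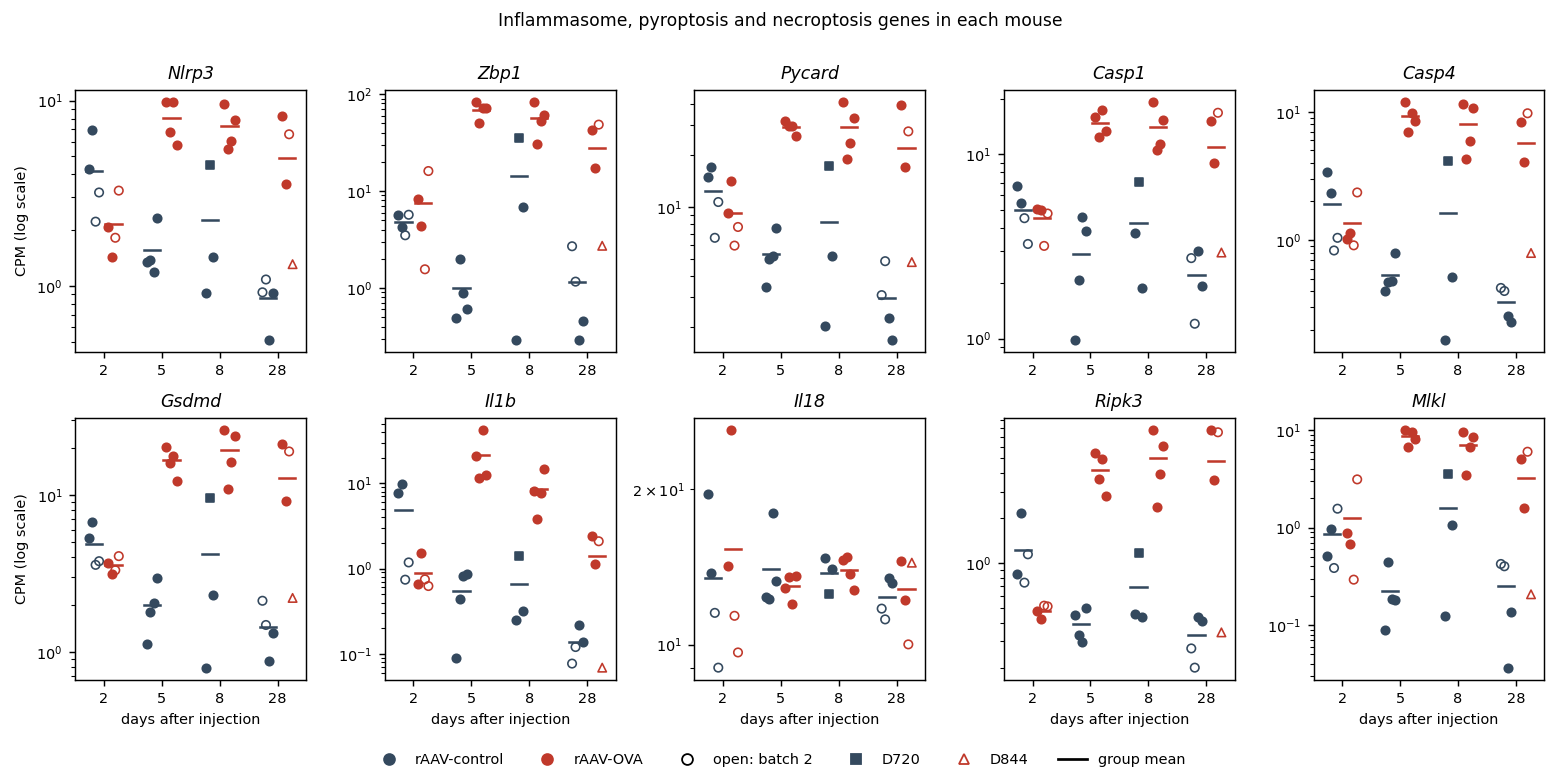
CPM (log axis) of each gene in each mouse by day after injection, for rAAV-control (dark) and rAAV-OVA (red), with lines at the group means. At 5 d the red points of every gene but Il18 lie above the dark ones; the square marks D720 and the triangle D844, and open symbols are mice of batch 2.

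The sensor gene with the widest change was Zbp1 (ENSMUSG00000027514.15), whose protein binds Z-form nucleic acids and engages RIPK3. At 5 d its level was 82.8, 50.5, 71.8 and 71.4 CPM in the rAAV-OVA mice and 0.492, 1.97, 0.890 and 0.610 CPM in the rAAV-control mice. The lowest rAAV-OVA mouse thus lay far above the highest control. The means were 69.1 ± 13.5 and 0.991 ± 0.675 CPM (SD, n = 4 each), 69.7 times apart, and the fitted Log2FC was 5.07 (SE 0.77, FDR = 6.3e-05 in edgeR), that is 33.7-fold. The fit holds 2 surrogate variables, and the fitted folds at 5 and 28 d were smaller with them than without them in each of the 9 genes called at 5 d. Without them the Log2FC at 5 d was 6.14 for Zbp1, 5.25 for Mlkl, 5.22 for Il1b, 4.05 for Casp4, 3.38 for Ripk3, 3.04 for Gsdmd, 2.45 for Pycard, 2.35 for Casp1 and 2.34 for Nlrp3. At 28 d it was 4.57 for Zbp1, 4.10 for Casp4, 3.84 for Ripk3, 3.66 for Mlkl, 3.14 for Gsdmd, 2.90 for Pycard, 2.52 for Nlrp3 and 2.30 for Casp1.

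At 8 d the rAAV-OVA mice had 82.8, 30.4, 52.4 and 60.1 CPM of Zbp1, and the controls 0.292, 35.5 and 6.88 CPM. The highest control, D720, was above the lowest rAAV-OVA mouse, so that the groups overlapped. The Log2FC was 2.66 (SE 0.71, FDR = 0.012 in edgeR). It was 1.99 (FDR = 0.13 in edgeR) without surrogate variables, where the call was lost, and 3.90 (FDR = 0.00093) without D720 and D844. At 28 d the levels were 42.5, 17.2, 48.4 and, in D844, 2.72 CPM, against 2.69, 1.16, 0.293 and 0.458 CPM in the controls. D844 was level with the highest control. The Log2FC was 2.87 (SE 0.78, FDR = 0.0073 in edgeR), and 3.85 (FDR = 0.00086) without D720 and D844. At 2 d Zbp1 was at 1.56 to 16.1 CPM in rAAV-OVA mice and at 3.50 to 5.72 CPM in controls, and it was not called (Log2FC 0.37, FDR = 0.90 in edgeR). The highest of those mice, BEC-B542, also had the highest interferon response sum of the day, 1131 CPM against 130 to 474 CPM in the other rAAV-OVA mice.

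Nlrp3 (ENSMUSG00000032691.15), the sensor of the best studied inflammasome, rose less. Its rAAV-OVA levels at 5 d were 9.77, 6.81, 9.82 and 5.73 CPM against 1.34, 1.39, 1.19 and 2.31 CPM in the controls. The groups did not overlap, and the Log2FC was 1.74 (SE 0.41, FDR = 0.0027 in edgeR). It remained at 7.27 ± 1.89 CPM (SD, n = 4) against 2.28 ± 1.93 CPM (n = 3) at 8 d and at 4.92 ± 3.08 CPM against 0.859 ± 0.243 CPM (n = 4 each) at 28 d. Nlrp3 was a DEG on both days (Log2FC 1.81 and 1.72, FDR = 0.0056 and 0.0051 in edgeR), with every rAAV-OVA mouse above every control. Without D720 and D844 the Log2FC was 2.60 at 8 d and 2.56 at 28 d.

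Pycard (ENSMUSG00000030793.5), which encodes the adaptor ASC, was at 31.7, 29.7, 29.8 and 25.8 CPM in the rAAV-OVA mice at 5 d and at 3.45, 4.97, 5.23 and 7.61 CPM in the controls. Its Log2FC of 1.61 (SE 0.38, FDR = 0.0029 in edgeR) was the smallest of the 9 DEGs, although no mouse of one group reached the other. At 8 d the Log2FC was 1.83 (FDR = 0.0031), and at 28 d 1.91 (FDR = 0.0012 in edgeR). On the latter day D844, at 4.79 CPM, lay below the highest control, at 4.85 CPM, while the other rAAV-OVA mice were at 17.2 to 39.2 CPM. Without D720 and D844 the Log2FC of Pycard was 2.78 at 8 d and 2.71 at 28 d.

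Casp1 (ENSMUSG00000025888.7), the caspase that matures IL-1β and IL-18, had 15.98, 12.4, 17.4 and 13.4 CPM in the rAAV-OVA mice at 5 d and 0.984, 2.08, 4.56 and 3.82 CPM in the controls. The Log2FC was 2.00 (SE 0.46, FDR = 0.0021 in edgeR). It was 1.58 (FDR = 0.021) at 8 d, when the rAAV-OVA mice were at 10.5 to 19.3 CPM and the controls at 1.87 to 7.04 CPM. At 28 d it was 1.84 (FDR = 0.0052 in edgeR), and D844 (2.93 CPM) lay within the control range of 1.20 to 3 CPM. Leaving out D720 and D844 gave a Log2FC of 2.38 at 8 d and 2.81 at 28 d.

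Casp4 (ENSMUSG00000033538.14) was scarce in the controls of 5 d. On that day the controls had 0.403, 0.475, 0.482 and 0.789 CPM, or 9 to 44 counts, and the rAAV-OVA mice 11.9, 6.96, 9.72 and 8.50 CPM. All rAAV-OVA mice were well above all controls. The means differed 17.3-fold and the fitted Log2FC was 2.97 (SE 0.54, FDR = 0.00031 in edgeR). Casp4 was a DEG at 8 d (Log2FC 2.58, FDR = 0.0027) and at 28 d (Log2FC 2.78, FDR = 0.0015 in edgeR). The groups did not overlap on either day, but at 8 d D720 (4.17 CPM) came close to the lowest rAAV-OVA mouse (4.29 CPM). Without D720 and D844 the Log2FC was 4.32 at 8 d and 3.78 at 28 d.

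Gsdmd (ENSMUSG00000022575.6), the pore former of pyroptosis, was at 20.3, 15.9, 17.8 and 12.3 CPM in the rAAV-OVA mice at 5 d, and at 1.12, 1.79, 2.04 and 2.96 CPM in the controls. The groups were well apart, with a Log2FC of 2.25 (SE 0.49, FDR = 0.0015 in edgeR). By 8 d the means were 19.2 ± 6.87 CPM (SD, n = 4) and 4.20 ± 4.65 CPM (n = 3), with a Log2FC of 2.38 (FDR = 0.0027 in edgeR). At 28 d they were 12.8 ± 8.76 and 1.45 ± 0.513 CPM (n = 4 each), with a Log2FC of 2.13 (FDR = 0.0036 in edgeR). Both groups stayed apart on these days, with D844 (2.21 CPM) narrowly above the highest control (2.12 CPM). Leaving out D720 and D844 gave a Log2FC of 3.58 at 8 d and 3.26 at 28 d.

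The cytokine genes differed from each other. Il1b (ENSMUSG00000027398.14) was at 20.7, 11.6, 42.2 and 12.3 CPM in the rAAV-OVA mice at 5 d and at 0.0895, 0.439, 0.816 and 0.861 CPM in the controls, the lowest of which held 2 counts. Every rAAV-OVA mouse was above every control, although the rAAV-OVA mice also varied among themselves. The Log2FC was 4.63 (SE 0.81, FDR = 0.00021 in edgeR). At 8 d the rAAV-OVA mice had 8.15, 3.83, 7.71 and 14.8 CPM against 0.251, 1.39 and 0.318 CPM (Log2FC 3.55, SE 0.87, FDR = 0.0067 in edgeR), or a Log2FC of 4.81 without D720 and D844. At 28 d they had 2.38, 1.13, 2.09 and, in D844, 0.0690 CPM (2 counts), against 0.0770 to 0.220 CPM in the controls. This was not a DEG (Log2FC 2.44, SE 1.07, FDR = 0.080 in edgeR). It was one without surrogate variables (Log2FC 3.30, FDR = 0.0098), in DESeq2 (Log2FC 2.34, FDR = 0.020) and without D720 and D844 (Log2FC 3.67, FDR = 0.011 in edgeR), and also where any of D723, D684, D700, D701 or D722 was left out (FDR between 0.026 and 0.049).

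Il18 (ENSMUSG00000039217.14) was the opposite case, since it was readily detected in all mice and was a DEG on no day. At 5 d it was at 12.9, 13.5, 11.98 and 13.6 CPM in the rAAV-OVA mice and at 12.4, 12.3, 17.99 and 13.3 CPM in the controls. At 8 d the range was 12.7 to 14.8 CPM against 12.55 to 14.7 CPM, and at 28 d 10.01 to 14.6 CPM against 11.2 to 13.5 CPM. The groups overlapped on every day. Its Log2FC was 0.01 (SE 0.14) at 2 d, -0.07 (SE 0.15) at 5 d, -0.19 (SE 0.16) at 8 d and 0.11 (SE 0.15) at 28 d, with FDR values of 0.99, 0.75, 0.40 and 0.59 in edgeR. Its highest values over the 31 mice were 26.1 CPM, in the rAAV-OVA mouse D684, and 19.5 CPM, in the rAAV-control mouse D740, both of 2 d. Their choroid plexus markers summed to 5037 and 2000 CPM. D845 had 5118 CPM of these markers and 10.01 CPM of Il18, and D851, D724 and D706 had 4168, 3705 and 3666 CPM with 11.2, 12.3 and 13.2 CPM of Il18. The part of these cells in the levels of Il18 was not tested.

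The necroptosis genes rose with the others. Mlkl (ENSMUSG00000012519.15), the executioner of necroptosis, was at 10.04, 6.75, 9.66 and 8.09 CPM in the rAAV-OVA mice at 5 d and at 0.0895, 0.439, 0.186 and 0.179 CPM, or 2 to 12 counts, in the controls. The groups were far apart (Log2FC 4.22, SE 0.67, FDR = 9.6e-05 in edgeR). At 8 d the rAAV-OVA mice had 9.61, 3.46, 6.75 and 8.43 CPM, and the controls 0.125, 3.59 (D720) and 1.07 CPM. The groups overlapped through D720, and the Log2FC was 2.72 (SE 0.64, FDR = 0.0049 in edgeR), or 2.15 (FDR = 0.089) without surrogate variables, where the call was lost, and 3.50 (FDR = 0.00083) without D720 and D844. At 28 d the rAAV-OVA mice had 5.04, 1.59, 5.997 and, in D844, 0.207 CPM, and the controls 0.423, 0.401, 0.0366 and 0.137 CPM. D844 was within the control range. The Log2FC was 2.01 (SE 0.72, FDR = 0.034 in edgeR), and 2.88 (FDR = 0.0037) without D720 and D844. The call at 28 d was lost in 11 of the 31 fits that left out 1 mouse (FDR between 0.053 and 0.14). The Log2FC in these fits ran from 1.74 to 2.01. They were those without D725, D726, D786, D787, BEC-B542, D743, D703, D696, D661, D851 or D706.

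Ripk3 (ENSMUSG00000022221.15), the kinase that activates MLKL, was at 5.43, 3.67, 4.95 and 2.80 CPM in the rAAV-OVA mice at 5 d and at 0.448, 0.329, 0.297 and 0.502 CPM in the controls. The groups did not overlap (Log2FC 2.64, SE 0.50, FDR = 0.00046 in edgeR). On day 8 the means were 5.01 ± 2.36 CPM (SD, n = 4) and 0.688 ± 0.414 CPM (n = 3), with a Log2FC of 2.84 (FDR = 0.00096 in edgeR). At 28 d they were 4.79 ± 3.51 and 0.330 ± 0.114 CPM (n = 4 each), with a Log2FC of 2.76 (FDR = 0.00091 in edgeR), and D844 (0.345 CPM) was again within the control range. Leaving out D720 and D844 gave a Log2FC of 3.40 at 8 d and 3.84 at 28 d.

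**Figure D2:**
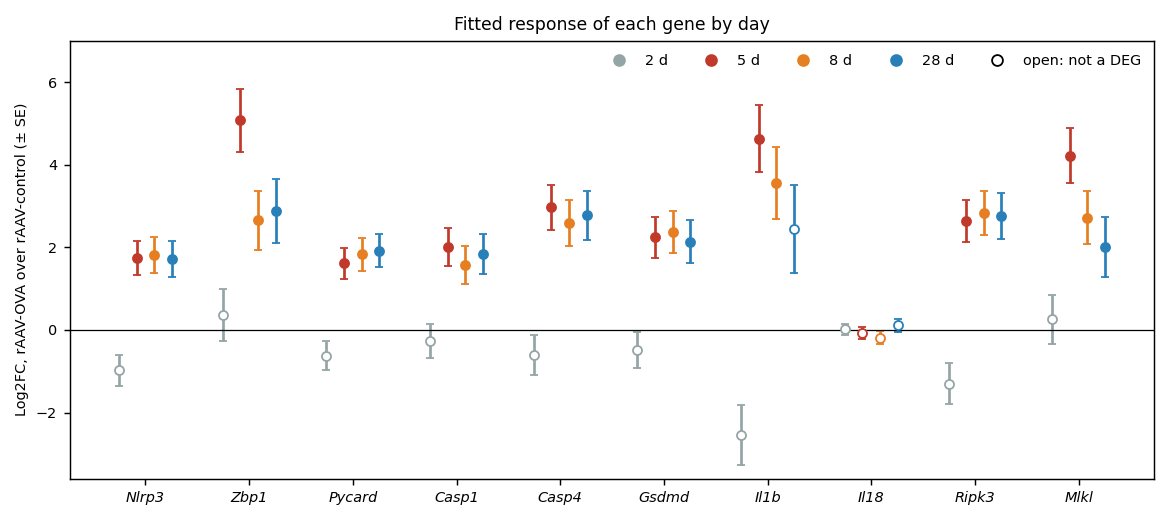
Fitted Log2FC (log2 scale, bars ± SE) of rAAV-OVA over rAAV-control for each gene at 2, 5, 8 and 28 d; filled points are DEGs and open points are not. Zbp1 (5.07), Il1b (4.63) and Mlkl (4.22) were highest at 5 d, and Il18 stayed near 0 on all days.

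Over the genes, 9 of 10 were increased DEGs at 8 d (9.32% of all genes) and 8 of 10 at 28 d (12.8% of all genes), the exceptions being Il18 and, at 28 d, Il1b. The median Log2FC of the 10 genes was 2.48 at 8 d and 2.07 at 28 d, against -0.03 and 0.01 for all genes. Every rAAV-OVA mouse lay above every control in 7 genes at 8 d (14.4% of all genes) and in 4 at 28 d (15% of all genes). Without D720 and D844 this held for 9 genes on both days (24.8% of all genes at 8 d and 24% at 28 d), with 9 DEGs on both days (12.1% of all genes increased at 8 d and 14.6% at 28 d). The calls at 8 d rested on few mice. Leaving out the control D722, which left D696 and D720 as controls, kept 1 DEG, Ripk3 (2.62% of all genes). In that fit the Log2FC of the genes that lost their call ran from 1.07 (Casp1) to 2.96 (Il1b). Leaving out BEC-B541 kept 4 DEGs (5% of all genes) and leaving out D845 kept 4 (6.49%), although neither mouse was of that day. A fit of the mice of 8 d alone called 0 of the 10 genes (0% of all genes; edgeR, FDR from 0.059 to 0.27 in the 9 genes), with Log2FC values from 1.70 (Nlrp3) to 3.76 (Il1b) in these 9, as against 1.58 (Casp1) to 3.55 (Il1b) in the fit of all mice. Single calls were also lost at 8 d for Casp1 without D684 or D700 and for Zbp1 without D684, D701 or D696, and for Mlkl without D696.

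Whether the response changed after 5 d was tested by the difference between the Log2FC values of 2 days. For 28 against 5 d, 0 of the 10 genes passed (6.13% of all genes did, in either direction), and 2 had an unadjusted p under 0.05 (edgeR), as did 27.1% of all genes. These were Zbp1, whose Log2FC was lower by 2.20 at 28 d (difference -2.20, SE 1.02, FDR = 0.17), and Mlkl (difference -2.21, SE 0.95, FDR = 0.14). For 8 against 5 d, 0 passed (0.179% of all genes) and 1 had an unadjusted p under 0.05 (7.21% of all genes), and for 28 against 8 d, 0 passed (0% of all genes) and 0 had an unadjusted p under 0.05 (16.2% of all genes; edgeR). DESeq2 called 0 for each of the 3 differences as well.

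At 2 d, 0 of the 10 genes were DEGs (0% of all genes), and DESeq2 called 0 as well. An unadjusted p under 0.05 was found for 3 genes in edgeR (9.05% of all genes), all with lower values in rAAV-OVA mice: Il1b, Ripk3 and Nlrp3. The median Log2FC of the 10 genes was -0.54, against 0.01 for all genes. The 6 pan-myeloid markers moved with it: their median Log2FC was -0.81, all 6 were below 0, 0 of 6 were called, and their sums were 294 to 339 CPM in rAAV-OVA mice and 349 to 610 CPM in controls. Their part was not tested. In 0 genes did every rAAV-OVA mouse lie above every control (2.22% of all genes), and in 1, Ripk3, every rAAV-OVA mouse lay below every control (1.94% of all genes).

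Il1b at 2 d showed the widest spread. The controls of batch 1, D740 and D743, had 7.59 and 9.81 CPM (162 and 231 counts), and those of batch 2 had 0.741 and 1.18 CPM. The rAAV-OVA mice had 0.658 and 1.52 CPM in batch 1 and 0.747 and 0.624 CPM in batch 2. The high values were thus those of 2 control mice of 1 batch. The pooled Log2FC was -2.54 (SE 0.73, FDR = 0.34 in edgeR), and the difference of mean log2 CPM was -3.02 within batch 1 and -0.42 within batch 2. The same 2 controls had the highest sums of the neutrophil markers found in the table (S100a8 and Csf3r), 23.1 and 54.7 CPM, against 12.7 and 13.1 CPM in the controls of batch 2 and 7.07 to 10.3 CPM in the rAAV-OVA mice. The other neutrophil markers listed, S100a9, Ly6g, Cxcr2 and Retnlg, had no row in the table. The part of these cells in the Il1b level was not tested. Ripk3 was at 0.421 to 0.520 CPM in rAAV-OVA mice and at 0.741 to 2.17 CPM in controls, that is 10 to 16 counts against 18 to 51, with a Log2FC of -1.30 (SE 0.49, FDR = 0.44 in edgeR) and the same sign within both batches. Nlrp3 had a Log2FC of -0.97 (SE 0.38, FDR = 0.46 in edgeR), with overlapping groups.

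The other genes overlapped between the groups at 2 d as well when both batches were pooled. Within batch 1 both rAAV-OVA mice lay below both controls in 7 of the 10 genes (19% of all genes), among them Casp1, Casp4, Gsdmd and Pycard, and the median difference of mean log2 CPM over the 10 genes was -0.64. Within batch 2 this held for 1 gene (17.6% of all genes), and the median difference was 0.011. Casp1 was at 3.18 to 5.05 CPM in rAAV-OVA mice and at 3.26 to 6.75 CPM in controls, and Gsdmd at 3.16 to 4.08 CPM against 3.58 to 6.75 CPM. Pycard was at 5.98 to 14.2 CPM against 6.64 to 17.2 CPM, and Casp4 at 0.910 to 2.35 CPM against 0.830 to 3.37 CPM. Mlkl was at 0.292 to 3.12 CPM against 0.385 to 1.56 CPM, with the highest value in BEC-B542, the mouse that was also highest in Zbp1.

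The difference in response between 2 and 5 d, a comparison chosen after these values were seen, passed for 9 of the 10 genes, while 14.4% of all genes passed in either direction. The smallest difference was that of Pycard (2.23, SE 0.52, FDR = 0.0043 in edgeR) and the largest that of Il1b (7.17, SE 1.09, FDR = 0.00023), which joins the low value at 2 d to the high one at 5 d. Il18 did not pass.

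Some of the genes also differed between days in the controls. In rAAV-control mice, 3 of the 10 genes were higher at 2 than at 28 d, as were 2.66% of all genes: Il1b (log2 difference 4.49, SE 0.95, FDR = 0.0087 in edgeR), Nlrp3 (1.97, SE 0.42, FDR = 0.0085) and Pycard (1.60, SE 0.38, FDR = 0.017). Pycard, for instance, was at 15.04, 17.2, 6.64 and 10.7 CPM at 2 d and at 3.08, 4.85, 2.27 and 1.69 CPM at 28 d, and the ranges did not overlap. The median log2 difference of the 10 genes was 1.47, against -0.03 for all genes. Without D743, 0 genes passed (0.946% of all genes), with log2 differences of 3.45 for Il1b, 1.61 for Nlrp3 and 1.37 for Pycard (FDR = 0.068, 0.061 and 0.094 in edgeR). Without D844 5 did (4.18% of all genes), and without D720 and D844 6 did (5.02%), with Casp4, Gsdmd and Ripk3 added. Monocyte markers moved the same way, with 4 of 6 higher at 2 d, and their sum was 19.1 to 40.2 CPM at 2 d and 0.622 to 1.50 CPM at 28 d. Pan-myeloid markers did so as well, with 3 of 6 higher at 2 d and a median log2 difference of 1.68, as did 2 of 8 microglia markers and 1 of the 2 neutrophil markers in the table. The part of these cells was not tested.

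At 28 d, where each group held 2 mice of each batch, the 9 genes other than Il18 differed in the same direction within both batches. The difference of mean log2 CPM ran from 2.24 (Casp1) to 5.94 (Zbp1) in batch 1, and from 1.43 (Mlkl) to 2.66 (Zbp1) in batch 2, which holds D844. In batch 2 the groups overlapped in Pycard, Il1b and Mlkl, besides Il18. In these 3 genes D844 lay within or below the range of the 2 controls, and D845 was the other rAAV-OVA mouse. A fit of batch 1 alone called 9 of the 10 genes (12.4% of all genes), and a fit of batch 2 alone called 0 (0.364% of all genes; edgeR). All mice of 5 and 8 d were of batch 1.

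Markers of other cells moved with these genes. At 5 d, 6 of 6 pan-myeloid markers (Csf1r, Aif1, Itgam, Ptprc, Tyrobp and Fcer1g) were increased, with sums of 757 to 901 CPM in rAAV-OVA mice and of 223 to 431 CPM in controls. So were 6 of 6 monocyte markers, with sums of 195 to 350 CPM against 0.716 to 7.42 CPM. Of the T cell markers, Cd8a and Trbc2 were in the table and both were increased, with sums of 97.9 to 153 CPM against 0.940 to 3.33 CPM; Cd3e, Cd3d, Cd8b1 and Trac had no row. The 2 neutrophil markers in the table summed to 25.9 to 35.6 CPM against 5.19 to 16.95 CPM, and 0 of 2 were called. Of 8 microglia markers, 2 were increased and 1 was decreased (sums of 763 to 808 CPM against 409 to 604 CPM). The 12 interferon response genes were all increased at 5 d, with sums of 1822 to 3243 CPM against 64.4 to 168 CPM. The 6 hippocampal neuron markers were all in the table and summed to 2840 to 3085 CPM against 3979 to 4630 CPM, with 1 of 6 decreased. Astrocyte, oligodendrocyte, endothelial and choroid plexus markers, 4 each, held 0 increased genes at 5 d and 1, 3, 0 and 4 decreased ones in this order. The choroid plexus sums were 39.6 to 123 CPM in rAAV-OVA mice and 37.7 to 136 CPM in 3 controls, with 3705 CPM in the control D724, and the groups overlapped in all 4 markers. The part of any of these cells in the levels of the 10 genes was not tested.

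By 8 d the pan-myeloid markers summed to 636 to 1282 CPM against 188 to 730 CPM, and 5 of 6 were increased. At 28 d 6 of 6 were increased, with 246 to 1064 CPM against 179 to 205 CPM. Monocyte markers summed to 84.3 to 300 CPM against 1.96 to 50.3 CPM at 8 d, and to 3.59 to 102 CPM against 0.622 to 1.50 CPM at 28 d. Neutrophil markers summed to 21.8 to 41.9 CPM against 5.10 to 21.7 CPM at 8 d and to 8.48 to 45.7 CPM against 3.66 to 6.74 CPM at 28 d, with 1 of 2 increased on each day. Of the interferon response genes, 6 of 12 were increased on each of these days. Both T cell markers were increased on these days, with sums of 158 to 523 CPM against 2.47 to 33.3 CPM at 8 d and of 31.9 to 652 CPM against 0.778 to 1.73 CPM at 28 d. At 28 d 5 of 8 microglia and 3 of 4 endothelial markers were increased and 4 of 6 hippocampal neuron markers decreased, while at 8 d 0 of each of these lists were called. The lower ends of the rAAV-OVA ranges at 28 d were those of D844, and the upper ends of the control ranges at 8 d those of D720.

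The levels were therefore also expressed relative to the mean log2 CPM of the 6 pan-myeloid markers in the same mouse, which itself was higher by 2.22 at 5 d, by 1.91 at 8 d and by 2.39 at 28 d in rAAV-OVA mice. On this scale the genes parted. Nlrp3 differed by 0.10 at 5 d, 0.01 at 8 d and -0.21 at 28 d, and Casp1 by 0.32, -0.03 and -0.31, with overlapping groups on all 3 days. Pycard differed by 0.27, 0.36 and 0.23. Zbp1 still differed by 3.97 at 5 d, where the groups did not overlap, and by 1.65 at 8 d and 1.91 at 28 d, where they did. For Zbp1 the overlap at 8 d came through D720 (-1.14, against -1.36 in the lowest rAAV-OVA mouse). At 28 d it came through D844 (-3.19, against -2.58 in the highest control). Mlkl differed by 2.77 without overlap at 5 d, and by 0.92 and 0.46 with overlap at 8 and 28 d. Il1b differed by 2.98, 1.87 and -0.14, with overlap at 28 d. Casp4 was between them, with 1.73, 1.25 and 1.02, and was the 1 gene of the 10 in which every rAAV-OVA mouse lay above every control on all 3 days. Gsdmd differed by 0.85 without overlap and Ripk3 by 0.95 with overlap at 5 d. The difference of Il18 at 5 d was -2.31, which is close to the shift of the markers itself with the sign turned.

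In 6 of the 10 genes (Zbp1, Il1b, Mlkl, Casp4, Gsdmd and Pycard) every rAAV-OVA mouse lay above every control on the relative scale at 5 d, against 2.62% of all genes. This was so for 4 genes at 8 d (Casp4, Gsdmd, Pycard and Il1b; 2.01% of all genes) and for Casp4 at 28 d (1.31% of all genes). The relative scale divides by a summary of markers that both microglia and infiltrating cells express, and it does not assign the RNA to a cell.

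**Figure D3:**
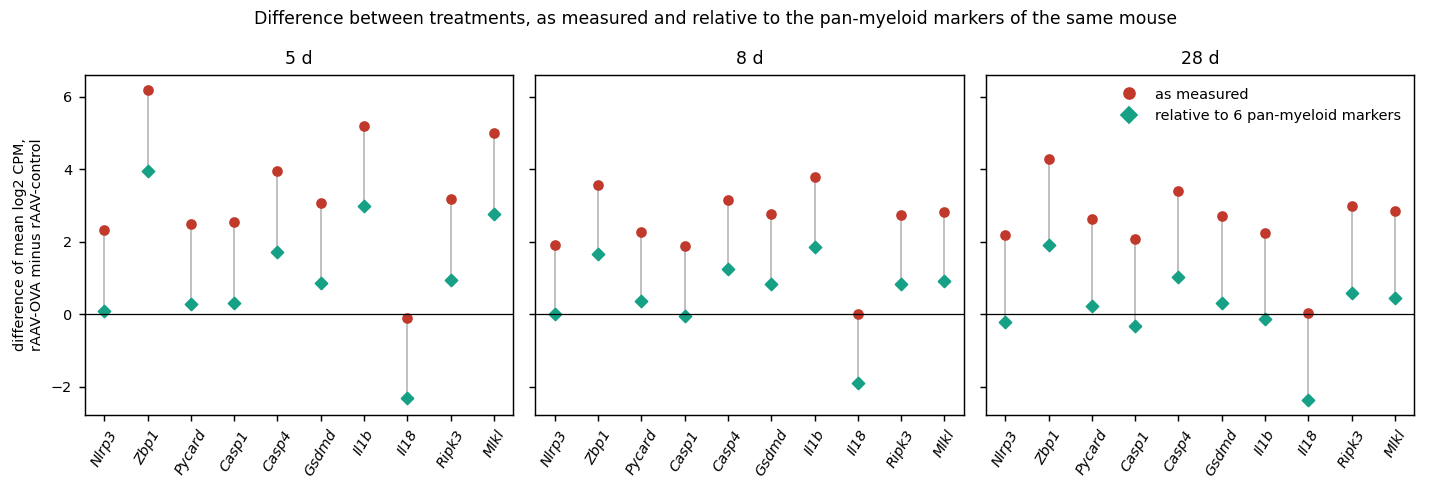
Difference of mean log2 CPM (rAAV-OVA minus rAAV-control) for each gene at 5, 8 and 28 d, as measured (circles) and relative to the 6 pan-myeloid markers of the same mouse (diamonds). On the relative scale Nlrp3 and Casp1 lie near 0 with overlapping groups, Pycard (0.27 at 5 d) is small but without overlap at 5 and 8 d, and Zbp1 remains at 3.97 at 5 d.

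Of 45 other genes listed for these pathways, 34 were in the table. At 5 d 20 of the 34 were increased and 0 decreased, at 8 d 22 and 0, at 28 d 21 and 0, and at 2 d 0 and 0. Their median Log2FC was 1.16, 1.24, 1.21 and -0.31 in this order. At 2 d 6 of them had an unadjusted p under 0.05 in edgeR (9.05% of all genes), and DESeq2 called 0. Among all genes, 9.63%, 9.32%, 12.8% and 0% were increased on these days. At 8 d 5 were called without D722, 14 without BEC-B541 and 13 without D845, when 2.62%, 5% and 6.49% of all genes were increased.

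Among the sensors, adaptors and partners of the inflammasome, 7 of 8 were increased on each of the 3 days. Ifi204, an interferon-induced DNA sensor, led at 5 d with 68.3 ± 14.7 CPM against 2.19 ± 1.69 CPM (SD, n = 4 each; Log2FC 3.98, SE 0.65, FDR = 0.00012 in edgeR). The others were Nlrp1a, Nlrp1b, Naip2, Naip5, Naip6 and Aim2, the sensor of cytosolic DNA. Nek7, the kinase that binds NLRP3, was the member that was not called, with a Log2FC of at most 0.29 in size on these days. Nlrp6, Nlrp10, Nlrp12, Nlrc4, Naip1 and Mefv had no row in the table. The Nlrp1, Naip and Ifi200 genes belong to families of close paralogs, among which the authors' transcript assignment could divide reads, so their separate levels are uncertain.

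Of the caspases and pore formers, 4 of 6 were increased at 5 d and 5 of 6 at 8 and 28 d. Among them were Casp8 and Casp12 and, from 8 d, Ninj1, which ruptures the membrane of dying cells. Casp8, which initiates apoptosis and restrains RIPK3, had a Log2FC of 1.51, 1.91 and 1.67 at 5, 8 and 28 d. Gsdme, another gasdermin, was not called on any day. Gsdma and Gsdmc had no row.

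In the IL-1 and IL-18 family, 4 of 7 were increased on each of the 3 days among Il1a, Il1rn, Il18rap and Il18bp. Il1rn, the antagonist of the IL-1 receptor, had the largest Log2FC of these 34 genes at 5 d, 5.09 (SE 0.95, FDR = 0.00037 in edgeR), with 29.9 ± 12.9 CPM against 0.427 ± 0.362 CPM (SD, n = 4 each). Il18rap, a chain of the IL-18 receptor found on activated T cells and natural killer cells, had a Log2FC of 4.60 at 5 d, 4.33 at 8 d and 4.48 at 28 d, with no overlap of the groups. Il18bp, the soluble decoy that binds IL-18, was at 52.1 ± 4.18 CPM against 2.44 ± 0.692 CPM at 5 d (Log2FC 3.43, SE 0.48, FDR = 3.5e-05 in edgeR), so that the decoy rose while Il18 itself was not called. The receptor gene Il1r1, the accessory chain gene Il1rap and the alarmin gene Il33 were not called on any day. Il1rap came close in the opposite direction at 28 d, at 30.7 to 50.4 CPM in rAAV-OVA mice and 53.2 to 63.8 CPM in controls, with a Log2FC of -0.62 (SE 0.12, FDR = 0.00082 in edgeR), short of the limit of 0.66. Il1r2, Il18r1 and Il1rl1 had no row.

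Of the 13 regulators of necroptosis, 5 were increased at 5 d, 6 at 8 d and 5 at 28 d. Birc3, a ubiquitin ligase that NF-κB induces, had the largest change, with a Log2FC of 2.57, 2.55 and 2.57 at 5, 8 and 28 d and no overlap of the groups. Ripk1, Tnfrsf1a and Tnfaip3 were increased on all 3 days, with Log2FC values of 1.24, 1.39 and 1.09 at 5 d. Cflar, which holds caspase-8 in check, was called at 5 and 8 d, and Fadd, the adaptor between death receptors and caspase-8, at 8 and 28 d. Adar, the RNA editor that keeps Z-form RNA from ZBP1, had a Log2FC of 0.37 (SE 0.07, FDR = 0.00032 in edgeR) at 5 d, below the limit of 0.66. Cyld, Tradd, Birc2, Ticam1, Sharpin and Pgam5 were not called on any day.

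**Figure D4:**
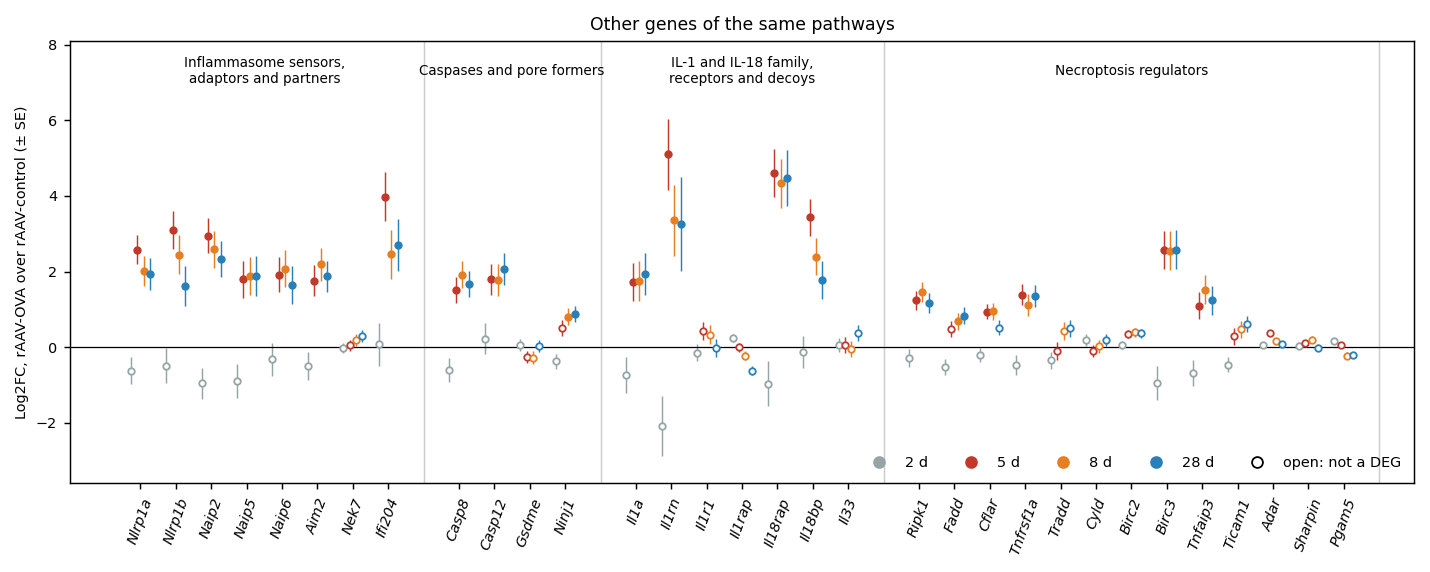
Fitted Log2FC (log2 scale, bars ± SE) of rAAV-OVA over rAAV-control at 2, 5, 8 and 28 d for other pathway genes in the table, in 4 lists; filled points are DEGs. At 5, 8 and 28 d all filled points lie above 0, with Il1rn (5.09) highest at 5 d.

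To compare levels between genes, CPM was divided by the median length of a gene's annotated protein-coding transcripts in kilobases. Every such transcript counted alike, whatever its length. The median was 898 bases for Gsdmd, 781 for Il18, 2146.5 for Pycard and 3933 for Nlrp3. The order below depends on these lengths, and other lengths were not tried. In rAAV-control mice at 5 d Il18 was highest by this measure, at 17.9 ± 3.47 CPM per kilobase (SD, n = 4), and the next gene, Pycard, had 2.48 ± 0.801. In rAAV-OVA mice at 5 d Zbp1 was highest, at 50.1 ± 9.78 CPM per kilobase, followed by Gsdmd (18.5 ± 3.76), Il18 (16.6 ± 0.945) and Il1b (16 ± 10.5), whose ranges overlapped. Nlrp3 was lowest, at 2.04 ± 0.530 CPM per kilobase, and its range overlapped with that of Ripk3 (2.26 ± 0.643). At 28 d Zbp1 had 20.1 ± 15.6 CPM per kilobase in rAAV-OVA mice and was no longer apart from Il18 (16.4 ± 2.75) or Gsdmd (14.3 ± 9.75).

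The courses over the 8 groups were alike in the 9 genes other than Il18. Pearson's r between the group means of log2 CPM of 2 of these genes had a median of 0.965 and ran from 0.842 to 0.997 over 36 pairs, and r of Il18 with each of the 9 ran from -0.102 to 0.105. These values describe 8 points that share the difference between treatments. Of 14265 other genes with a mean of at least 1 CPM, the one whose group means were most like those of Nlrp3 was Fcer1g, one of the pan-myeloid markers (r = 0.999). It was Gbp3 for Zbp1 (r = 0.998), Parp12 for Mlkl (0.997), Irf5 for Gsdmd (0.997), Csf2rb for Casp4 (0.998), Uba7 for Casp1 (0.997), Cks1b for Pycard (0.997), Rrm1 for Ripk3 (0.998), Ncln for Il1b (0.993) and Atp5c1 for Il18 (0.921). Runners-up could be nearly tied: for Casp1, Themis2 reached 0.9969 against 0.9971 for Uba7.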

How the data were processed

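RNA of the left hippocampus of 31 mice was sequenced from poly(A)-selected libraries. Per the study's methods, fastp removed adapters and poor bases, and the authors quantified GENCODE M29 transcripts by Salmon 1.8.0 (genome as decoy, GC correction), collapsed the estimates to genes in tximeta and required 15 counts or more in 15 or more of the mice. The deposited values are these estimated counts per gene, given as whole numbers. Both deposited tables hold the same values (0 cells differ), and 0 columns of values were left out. A read counted for a transcript is an estimate, so genes with near-identical copies are less certain. Totals had a median of 27024978 counts. No 2 mice of a group agreed within counting noise.

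Groups and batches came from the labels. Counts were fitted in edgeR 4.0.16 (R 4.3.3; TMM, robust quasi-likelihood F-test) with 8 groups and 2 surrogate variables from sva 3.50.0, over all 15648 genes, with Benjamini-Hochberg adjustment. A DEG had an FDR of at most 0.05 and a Log2FC of at least 0.66 in size. Differences between days were contrasts of the same fit, and that of 5 against 2 d was added after the values were seen. CPM are TMM-scaled. All p-values refer to the spread between mice, which are separate animals, and no p was computed over the list alone. Transcript lengths were medians over a gene's protein-coding transcripts in GENCODE M21. The promoter windows were RefSeq's for GRCm38.p6, of which only sequences and coordinates of that build were used.

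The 10 genes, the pathway lists and the marker lists (microglia, pan-myeloid, monocyte, neutrophil, T cell, hippocampal neuron, astrocyte, oligodendrocyte, endothelium, choroid plexus, interferon response) were chosen with earlier results of these data known. All 10 genes are named, and of the other pathway genes the at most 4 with the largest Log2FC on each day among DEGs without overlap of the groups, besides those without a row. For each of the 10 genes the gene most like it over the group means is named. Casp8, Il1a, Naip5, Naip6, Nlrp1a, Nlrp1b, Aim2, Adar and the other pathway genes with values outside this rule were chosen after their values were seen. A few genes and a motif are not reported here.

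Alternatives were DESeq2 1.42.0 (with and without ashr 2.2.63 shrinkage), DESeq2 size factors in edgeR, no surrogate variables, the batch label in their place, no limit on the Log2FC, at least 15 counts in every mouse, the mice of 1 day or 1 batch alone, levels relative to pan-myeloid markers, and each mouse left out in turn. Leaving out D720 and D844 together was added after the data were seen.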

Additional observations from a re-analysis of the deposited data

Results flagged for a closer look

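Of 70 sets of 4 mice (1 gene in 1 group), 3 (4.29%) held a mouse whose gap to the nearest other mouse passed Dixon's 95% critical value for 4 samples, and chance flags about 1 in 20 groups. All 3 were rAAV-OVA mice at 2 d. Casp1 was at 3.184 CPM in BEC-B541, below the other 3 mice (4.773 to 5.045 CPM). Casp4 was at 2.35 CPM in BEC-B542, above the others (0.9096 to 1.136 CPM). Il1b was at 1.515 CPM in D684, above the others (0.6241 to 0.7472 CPM).

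The difference between rAAV-OVA and rAAV-control mice was larger at 5 than at 2 d for 9 genes, by a test of the difference itself (edgeR's quasi-likelihood test, all FDR at most 0.011), as it was for 10% of all genes. The differences of the Log2FC values were 7.17 for Il1b, 4.71 for Zbp1, 3.96 for Mlkl, 3.94 for Ripk3, 3.57 for Casp4, 2.73 for Gsdmd, 2.71 for Nlrp3, 2.27 for Casp1 and 2.23 for Pycard.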

How the results depend on the processing

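With at least 15 counts in every mouse, 4 of the 10 genes remained (Casp1, Gsdmd, Pycard and Il18), 3 of which were DEGs at 5, 8 and 28 d and differed between 2 and 5 d, and 1 of which was higher in controls at 2 than at 28 d (8.64%, 5.78%, 12%, 9.28% and 1.22% of the 13779 genes tested, in this order); 11, 11 and 13 other pathway genes were called on these days, as fewer genes were tested. With the mice of 8 d alone, 0 genes and 0 other pathway genes were called. Batch 2 alone called 0 and 0 at 28 d, and 0 in controls at 2 against 28 d, where leaving out D720 and D844 called 6 with or without surrogate variables. Leaving out each mouse in turn gave 1 to 9 genes at 8 d, 7 to 9 at 28 d, 5 to 22 other pathway genes at 8 d and 0 to 5 genes for the controls, while 2.62% to 10.7% of all genes were increased at 8 d, 8.32% to 15.6% at 28 d and 0.946% to 4.18% were higher in the controls at 2 d. All 31 such fits called 9 genes at 5 d (8.35% to 11.7% of all genes). The scale relative to the pan-myeloid markers shifts every gene alike (by -0.68, 2.22, 1.91 and 2.39 in the markers at 2, 5, 8 and 28 d), so a turned sign there restates that shift and is no test of a gene: it turned for Casp1 (2 d 0.56, 8 d -0.033, 28 d -0.31), Casp4 (2 d 0.33), Gsdmd and Pycard (2 d 0.28 each), Nlrp3 (28 d -0.21), Il1b (28 d -0.14) and Il18 (28 d -2.35). In batch 2 alone it turned at 2 d for Casp1 (0.039), Casp4 (0.80) and Gsdmd (0.011). The small Log2FC of Il18 turned at 28 d without D720 and D844 (-0.051, or -0.0155 also without surrogate variables), at 5 d with the stricter filter (0.0595), and at 8 d without surrogate variables (0.018), with the batch label (0.018) or with that day's mice alone (0.047). Leaving out 1 mouse gave ranges across 0 for genes that were not called: at 2 d Casp1 (-0.39 to 0.026), Casp4 (-0.77 to 0.092), Il18 (-0.17 to 0.36), Mlkl (-0.32 to 0.80) and Zbp1 (-0.25 to 0.86), and for Il18 at 5 d (-0.13 to 0.077), 8 d (-0.25 to 0.021) and 28 d (-0.14 to 0.36). The cause of these changes was not tested where the mice or genes left out do not show it. No paired analysis was possible because the numbers given to mice of different groups do not link them. Levels under 1 CPM rest on few counts (2 to 12 for Mlkl in controls at 5 d), which limits the folds of Mlkl, Il1b and Casp4. The same holds for Ripk3 and Zbp1, whose lowest controls at 5 d were at 0.297 and 0.492 CPM.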
